A study of Homo sapiens with 4 samples.

Results

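Glucose enters a cell through facilitative transporters and is committed to glycolysis by hexokinases and phosphofructokinase, and 10 genes of these steps were examined for binding of FOXK1. The genes were taken as a named set, the glucose transporters SLC2A1 and SLC2A3, the hexokinases HK1 and HK2, the isomerase GPI, the phosphofructokinases PFKL, PFKM and PFKP, and the bifunctional regulators PFKFB3 and PFKFB4. They are 10 of 20037 protein-coding genes in RefSeq on GRCh38, and the rule that lists them uses no measured value. FOXK1-bound DNA was sequenced after chromatin immunoprecipitation from HK-2, an immortalised human proximal tubular epithelial line (not to be confused with the gene HK2). The control cells had no added TGF-β1, and the treated cells had been given 10 ng/ml of this profibrotic cytokine for 24 h. Each condition had 1 library made with an antibody to FOXK1 and 1 input library without antibody, and all 4 came from the same line. Cells were fixed with paraformaldehyde, and chromatin had been digested with micrococcal nuclease and then sonicated. Every FOXK1 peak that overlapped a gene body or the 5 kb on either side was taken, which gave 166 of 381700 control peaks and 161 of 439136 TGF-β1 peaks on assembled chromosomes. Where a pair of values is given, the control value comes first.

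FOXK1 is a forkhead transcription factor that binds DNA motifs of the type GTAAACA, and it is known as a regulator of aerobic glycolysis and of autophagy genes. Proximal tubule cells rely mainly on fatty acid oxidation for energy, and a shift towards glycolysis is a known feature of injured and fibrotic kidney. In the upper pathway, hexokinases trap glucose as its phosphate, phosphofructokinase makes the committed step, and the PFKFB enzymes make and remove the sugar bisphosphate that activates phosphofructokinase.

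Promoters of 4 genes are printed: those of HK2 and PFKFB3 with the motif CACGTG, that of PFKM with the only forkhead match of the set, and that of SLC2A1, the gene with the densest high peaks, which holds none of the motifs searched. They are RefSeq sequences on GRCh38.p14, the 250 bases before the start, 5′ to 3′ on the strand of the gene, and capitals mark a match to a searched motif. The stretches are chr1:42958869-42959118 (minus strand) for SLC2A1, chr2:74834920-74835169 for the second listed start of HK2, chr10:6202682-6202931 for the second of PFKFB3 and chr12:48105103-48105352 for the first of PFKM, the last 3 on the plus strand.
SLC2A1: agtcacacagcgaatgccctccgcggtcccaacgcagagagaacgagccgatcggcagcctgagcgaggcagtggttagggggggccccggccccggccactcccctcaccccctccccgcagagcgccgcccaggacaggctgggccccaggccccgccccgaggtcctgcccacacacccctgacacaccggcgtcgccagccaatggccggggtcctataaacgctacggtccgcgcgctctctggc
HK2: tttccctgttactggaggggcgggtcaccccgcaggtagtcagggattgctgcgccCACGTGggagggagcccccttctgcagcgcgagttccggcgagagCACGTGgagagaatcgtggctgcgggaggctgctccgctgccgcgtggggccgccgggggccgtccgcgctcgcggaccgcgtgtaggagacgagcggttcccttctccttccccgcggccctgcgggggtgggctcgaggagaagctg
PFKFB3: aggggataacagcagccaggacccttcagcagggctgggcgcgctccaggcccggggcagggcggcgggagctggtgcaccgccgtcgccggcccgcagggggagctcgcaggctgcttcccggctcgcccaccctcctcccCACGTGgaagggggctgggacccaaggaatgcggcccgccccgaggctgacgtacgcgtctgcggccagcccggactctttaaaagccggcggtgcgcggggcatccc
PFKM: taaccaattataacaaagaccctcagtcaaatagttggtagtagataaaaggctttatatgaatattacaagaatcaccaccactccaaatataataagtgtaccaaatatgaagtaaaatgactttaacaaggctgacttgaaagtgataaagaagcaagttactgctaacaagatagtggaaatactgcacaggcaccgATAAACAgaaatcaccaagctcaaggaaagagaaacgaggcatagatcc

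The motifs were searched, on both strands, from 250 bases before to 50 after each of 26 listed starts of 9 of the genes. They were 5, the forkhead motifs GTAAACA and ATAAACA, the AP-1 motif TGANTCA, the hypoxia element core ACGTG and the E-box CACGTG, which contains ACGTG. The first, GTAAACA, was in 0 of the 26 windows, against 3.42% of 34943 RefSeq promoters of the same length. ATAAACA was in 2 of the 26 windows, which share 1 site because both belong to neighbouring starts of PFKM, and in 4.25% of all promoters. That site, at bases -49 to -43 from the first PFKM start, lay under peaks of height 8 and 6. CACGTG was in 2 windows, one of HK2 and one of PFKFB3, and in 7.23% of all promoters. The HK2 window held it at bases -194 to -189 and -149 to -144, under a control peak of height 11 but outside the TGF-β1 peak, which began further downstream. The PFKFB3 site, at bases -108 to -103, was covered in both lists, at heights of 11 and 9. ACGTG was in 7 of 26 windows and in 21.4% of all promoters, and TGANTCA in 2 windows, both of HK1, and in 7.72%. The SLC2A1 window held none of the 5 motifs, although its start had peaks of 11 and 16. A match describes these letters only, and the sequence under the peaks inside the genes was not analysed here.

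The value of a peak was its pileup height, the depth of overlapping fragments, as the deposited whole numbers were read. The lowest listed height was 3 and the median 5 in both lists, and heights of 10 or more made up 9.66% of control and 6.71% of TGF-β1 peaks. The number of reads per library is not given in the sources used here. Depth is therefore unknown and no error can be attached to a height, so heights set side by side do not measure a change. With 1 FOXK1 library per condition there is no test of TGF-β1, and all comparisons describe 2 libraries. A peak shows where FOXK1 signal was listed over input in 1 library, and not whether the gene was transcribed.

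Pooled over the set, most peaks of height 10 or more lay inside the genes, and a few genes supplied most of them. Of the 40 control peaks of height 10 or more, 28 were inside a gene (70.0%, exact binomial 95% interval 53.5 to 83.4), and of the 33 TGF-β1 peaks 23 were (69.7%, 51.3 to 84.4). The intervals here and below cover counting error only. They treat peaks as separate draws although many came from the same few genes. They may therefore be too narrow, and a share outside them is not a test of the set. SLC2A1 (7 and 3), HK2 (5 and 6) and PFKFB3 (7 and 7) together supplied 19 and 16 of these inner peaks. SLC2A3, GPI and PFKL had none in either list, and PFKM had 1 and 0. Places were set from the outer start, so 3 and 3 of the inner peaks lay within 1 kb of another listed start. The 6 of HK2 include the TGF-β1 peak at its second listed start, whose control partner was placed at the start. At the gene start, taken as 1 kb on either side, lay 6 and 5 of the peaks of height 10 or more, all in the 9 genes with a known strand. Among the 9 genes with a known strand the inside share was 73.7% (56.9 to 86.6) and 71.9% (53.3 to 86.3). It was 54.4% and 54.5% over all 15843 protein-coding genes with a known strand, below the first interval and inside the second. The share at the start was 15.8% (6.02 to 31.3) and 15.6% (5.28 to 32.8) in these genes, and both intervals hold the 28.5% and 29.0% of all such genes. These genes are long, with a median of 44.1 kb against 24.1 kb over all protein-coding genes, and a longer gene has more room inside; the part played by length was not tested.

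**Figure D1:**
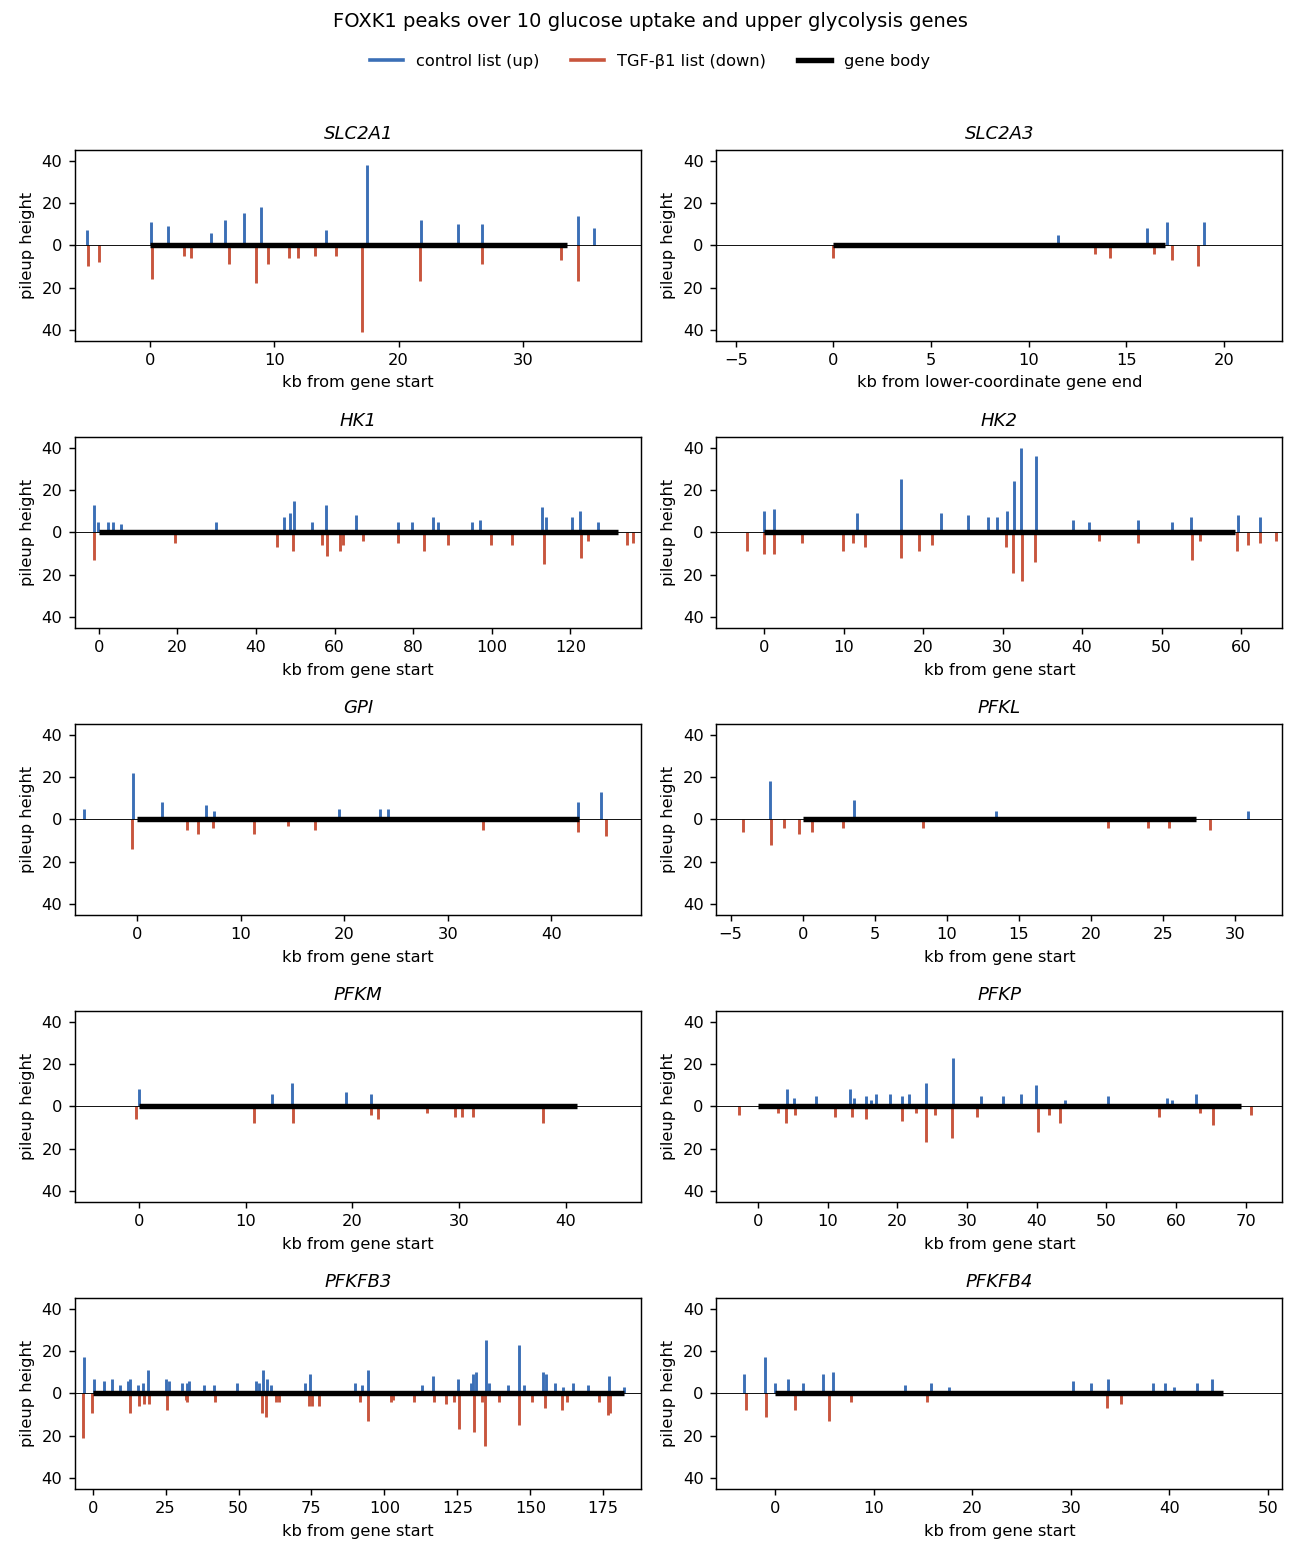
FOXK1 peaks over the 10 genes: the horizontal axis is the distance in kb from the gene start (for SLC2A3, from its lower-coordinate end), the black bar is the gene body, and each vertical line is 1 peak with its pileup height, upward for the control list and downward for the TGF-β1 list. The tallest lines stand inside SLC2A1 (38 and 41), HK2 (40 and 23) and PFKFB3 (25 and 25), at the same places in both lists.

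SLC2A1 encodes GLUT1, the main glucose transporter of many proliferating cells. It lies at chr1:42925353-42958868 on the minus strand. It had 14 control and 17 TGF-β1 peaks, of which 9 and 6 reached a height of 10. That was 20.7 and 13.8 such peaks per 100 kb, the highest density of the 10 genes in both lists. The highest peak stood inside the gene, 17.4 kb (control) and 17.1 kb (TGF-β1) from the start, with heights of 38 and 41. Those heights were above 99.58% and 99.78% of the peaks of their own lists. The control peak covered chr1:42940766-42942070 and the TGF-β1 peak chr1:42941017-42942575. Both peaks therefore marked 1 site with nearly the same rank in each library. A peak at the start, shared with the divergent transcript SLC2A1-DT, had heights of 11 and 16. Smaller common sites lay at 6.06 kb (12 and 9), at 8.93 kb (18 and 18), at 21.8 kb (12 and 17) and at the far end of the gene (14 and 17). The control list had 2 further peaks of height 10 or more, of 15 at 7.54 kb and of 10 at 24.8 kb, that no TGF-β1 peak overlapped, and they were the only such peaks without a counterpart in the windows of the 10 genes.

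SLC2A3 encodes GLUT3, a transporter of high affinity best known from neurons. It lies at chr12:7919230-7936187, and its strand was not taken from the tables, so its ends are given by coordinate. It had 4 control and 6 TGF-β1 peaks, of which 2 and 1 reached a height of 10. At the higher-coordinate end the heights were 11 and 7, and a second common site beyond that end, centred 19.0 and 18.7 kb from the other end, had 11 and 10. Within the gene body the highest peaks were 5 and 6, so that SLC2A3 lacked the high inner site seen in SLC2A1.

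HK1 encodes the hexokinase of most tissues, which is bound to mitochondria. It lies at chr10:69270000-69401882 and has 7 listed starts over its first 64614 bp. It had 23 and 19 peaks, of which 5 and 4 reached a height of 10, and none exceeded 15. A peak at the outer start, centred at -1.14 and -1.19 kb, had heights of 13 and 13, and the TGF-β1 one lay within 1 kb of the end of HKDC1. The highest control peak, of 15, was centred 597 bp past the listed start that lies 49064 bp into the gene, and the TGF-β1 peak there had a height of 9. The highest TGF-β1 peak, also of 15, lay 113 kb from the outer start and overlapped a control peak of 12. Common sites at 57.9 kb (13 and 11) and 122 kb (10 and 12) had similar heights. HK1 thus carried several even sites and no dominant one.

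HK2 encodes the inducible hexokinase, which many growing and cancer cells use. It lies at chr2:74834127-74893359 and had the highest control peaks of the set. Both of its listed starts had peaks in both lists, of 10 and 10 at the first and of 11 and 10 at the second, 1043 bp downstream. The high peaks stood further inside. At 17.2 kb the heights were 25 and 12. Then came a group of 3 sites within about 4 kb, at 31.4 kb (24 and 19), 32.3 kb (40 and 23) and 34.2 kb (36 and 14). The site of 40, at chr2:74866111-74866766 in the control list, was above 99.63% of its peaks, and the TGF-β1 peak of 23 above 99.07% of its own. At 53.8 kb the order was the other way round, with 7 and 13. All 4 high inner sites were therefore found in both libraries, each with the larger value in the control list.

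GPI encodes the isomerase that turns glucose phosphate into fructose phosphate. It lies at chr19:34359718-34402413. It was 1 of 2 genes whose highest control peak was at the outer start, with heights of 22 and 14, the control peak at chr19:34358878-34359801. The 1 listed start of GPI with a promoter entry lies 5274 bp further in. Within 1 kb of that start the control list had no peak and the TGF-β1 list had a highest peak of 7. Inside the gene the highest peaks were 8 and 7. A site past the far end, with 13 and 8, lay at the neighbouring gene PDCD2L.

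Phosphofructokinase has a liver, a muscle and a platelet subunit, and their genes differed in where the peaks were. PFKL, the liver subunit at chr21:44300053-44327373, had no control peak within 1 kb of its start and a highest TGF-β1 peak of 7 there. Its highest peaks, of 18 and 12, lay at -2.25 and -2.19 kb and overlapped the neighbour AIRE. PFKM, the muscle subunit at chr12:48105353-48146404, had 8 and 6 at its outer start, in a peak shared with SENP1, and no TGF-β1 peak in its window reached 10. Its highest control peak was 11, at 14.3 kb, where the TGF-β1 list had 8. PFKP, the platelet subunit at chr10:3067548-3136805, had no peak within 1 kb of its outer start in either list. Of its 4 listed starts, the innermost had a control peak of 6 and none had a TGF-β1 peak within 1 kb. Its high sites were inside, at 24.1 kb (11 and 17), 28.0 kb (23 and 15) and 39.9 kb (10 and 12). PFKP thus had peaks of height 10 or more within the gene in both libraries without a listed peak at its outer start.

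PFKFB3 and PFKFB4 encode regulators that set the level of the activator of phosphofructokinase, and both are known as hypoxia-responsive genes. PFKFB3, at chr10:6144921-6326637, is the longest of the set and had 47 control and 38 TGF-β1 peaks, 8 of them of height 10 or more in each list. Its outer start had 7 and 9. Near its second listed start, 58011 bp further in, the highest peaks were 11 and 11. They lay within 1 kb of an end, start or finish not being told apart, of the antisense gene PFKFB3-AS1. The highest site lay at 135 kb, with 25 and 25, the control peak at chr10:6279328-6279963. It was above 98.82% of control and 99.24% of TGF-β1 peaks. A site at 146 kb had 23 and 15. At 125 kb the heights were 7 and 17, and at 131 kb 10 and 18, the sites of PFKFB3 with the largest gaps in favour of the TGF-β1 list. A site at -3.04 kb with 17 and 21 overlapped the uncharacterised genes LOC101928080 and LOC124902369.

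PFKFB4, at chr3:48517684-48563136 on the minus strand, had 18 control and 8 TGF-β1 peaks. Its outer start had 17 and 11, but that peak lay in the body of COL7A1, near an end of UCN2. At its 1 listed start, 6333 bp further in, the heights were 10 and 13. The listed start therefore had a peak in both libraries, at a modest height.

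**Figure D2:**
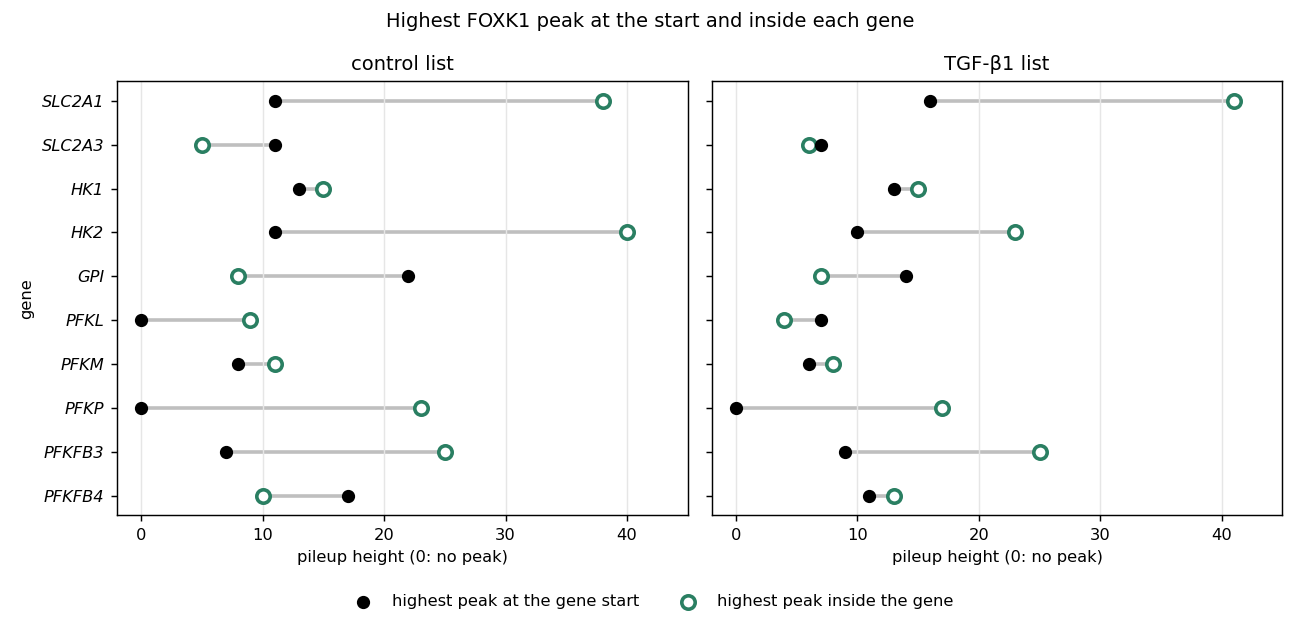
Highest pileup height within 1 kb of the gene start (black; for SLC2A3, of either gene end) and highest inside the gene (green ring) for each gene, control list on the left and TGF-β1 list on the right, with 0 where no peak was listed. SLC2A1, HK2, PFKP and PFKFB3 have the widest gaps in favour of the inside in both lists, while GPI (22 against 8, and 14 against 7) and SLC2A3 (11 against 5, and 7 against 6) have the opposite order in both lists, PFKFB4 (17 against 10) in the control list and PFKL (7 against 4) in the TGF-β1 list. The start is the outer one. The PFKFB4 peak of 17 lies in COL7A1 and that of 10 within 1 kb of the listed start, and the GPI start peaks lie further than 1 kb from its listed start.

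A peak of any height lay within 1 kb of the start of 8 (control) and 9 (TGF-β1) of 10 genes, against 68.1% and 67.0% of all protein-coding genes. A start peak of height 10 or more was found for 6 and 5 genes, against 37.6% and 30.7%. A peak of height 15 or more at the outer start was found only at GPI (22) and PFKFB4 (17) among control peaks and at SLC2A1 (16) among TGF-β1 peaks. Neither of the control peaks lay within 1 kb of a listed start, and that of PFKFB4 lay in COL7A1. At the listed start the control list had no peak for GPI and a height of 10 for PFKFB4. The share of all protein-coding genes was not counted at a height of 15 or more, so these counts cannot be placed against it. Taking any listed start instead, which was added after the data were seen, 7 and 8 of 9 genes had a peak, against 71.0% and 70.0% of genes with listed starts. With a height of 10 or more there were 5 genes in each list, against 41.8% and 34.4%. The median of the highest start peak was 11 and 9.5 in the set and 7 and 6 over all protein-coding genes.

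Counted over the gene body plus 5 kb, 10 of 10 genes had a control peak of height 10 or more and 9 had a TGF-β1 peak, PFKM being the exception, against 60.4% and 52.8% of all protein-coding genes. In lists of related genes, described below, the same rule gave 8 and 6 of 9 other glucose transporters and 10 and 12 of 15 lower glycolysis genes. It gave 5 and 5 of 8 other sugar kinases and regulators, and 10 and 10 of 10 transcription factors and inhibitors. Such window peaks were therefore not particular to the 10 genes. PFKL reached this height only at the site in AIRE, and SLC2A3 in the TGF-β1 list only beyond the gene. Of the 40 and 33 such peaks, 10 and 8 overlapped another gene or lay within 1 kb of its end. With the gene body plus 1 kb the counts were 9 and 7, for which no share over all genes was counted. The set is also long (median 44.1 kb against 24.1 kb), and the part of length in these counts was not tested. Per length, the set had 5.34 control and 4.41 TGF-β1 peaks of that height per 100 kb of window, against 1.97 and 1.56 over all protein-coding genes. Peaks of any height were closer, at 22.2 and 21.5 per 100 kb against 15.1 and 17.3. The highest peak of the gene was inside for 6 of the 10 control genes and for 6 of the 9 TGF-β1 genes with a peak of height 10 or more, against 36.0% and 38.2% of such genes overall. Inside was again set from the outer start. The HK1 control peak of 15 and the PFKFB4 TGF-β1 peak of 13, both counted here, lay within 1 kb of a listed start.

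Sites found in both libraries were the rule for high peaks. Of the control peaks of height 10 or more in the windows, 38 of 40 were overlapped by a TGF-β1 peak (95%, 83.1 to 99.4), and 33 of 33 TGF-β1 peaks were overlapped by a control peak (100%, 89.4 to 100). The corresponding shares over the windows of all protein-coding genes were 86.3% and 89.2%, the first inside the interval of the set and the second just below it. At heights of 7 to 9 the set had 55.8% and 56.8%, against 40.3% and 43.3%. For heights of 5 to 6 the shares were 13.8% and 20.8%, against 20.1% and 19.7%. At heights of 3 to 4 the set had 16.0% and 14.0%, against 13.4% and 12.8%. Low peaks of the 10 genes were thus mostly listed in 1 library only.

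**Figure D3:**
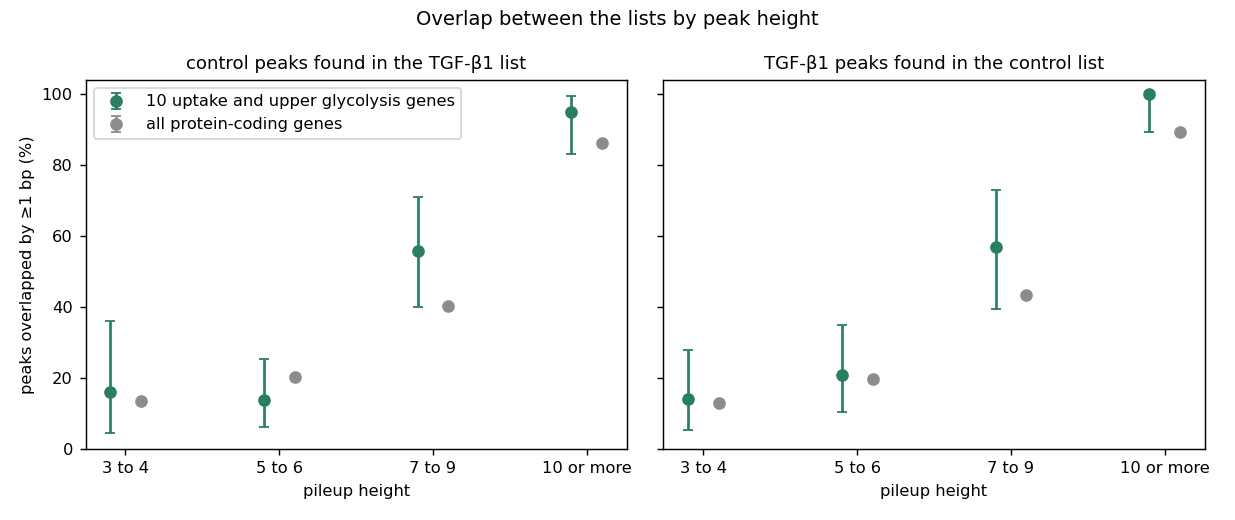
Share of peaks overlapped by at least 1 bp of a peak of the other list, by pileup height, for the windows of the 10 genes (green) and of all protein-coding genes (grey), with exact binomial 95% intervals. The share in the 10 genes runs from 16.0% and 14.0% at heights of 3 to 4 to 95% and 100% at heights of 10 or more.

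Heights at common sites had no single direction across the set. Overlapping peaks, each the highest partner of the other and with heights that sum to 20 or more, formed 34 pairs in these windows. The control height was larger in 15, the TGF-β1 height in 14, and 5 were equal, with a median log2 ratio of TGF-β1 over control of 0.00. Over all 25711 such pairs the control height was larger in 60.5% and the median was -0.20. The HK2 pair at 34.2 kb (36 and 14) had a log2 ratio of -1.36, and 1.95% of the 4627 pairs with a summed height within 25% of it had a ratio as low. For the HK2 pair at 17.2 kb (25 and 12) the ratio was -1.06, and 6.98% of 8987 pairs were as low. At the other side stood the PFKFB3 pair at 125 kb (7 and 17), with 1.28, where 1.15% of 15357 pairs were as high. The strongest SLC2A1 pair (38 and 41) had a ratio of 0.11. These percentages place single pairs among all pairs of 2 libraries, and without replicates they are not a test.

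**Figure D4:**
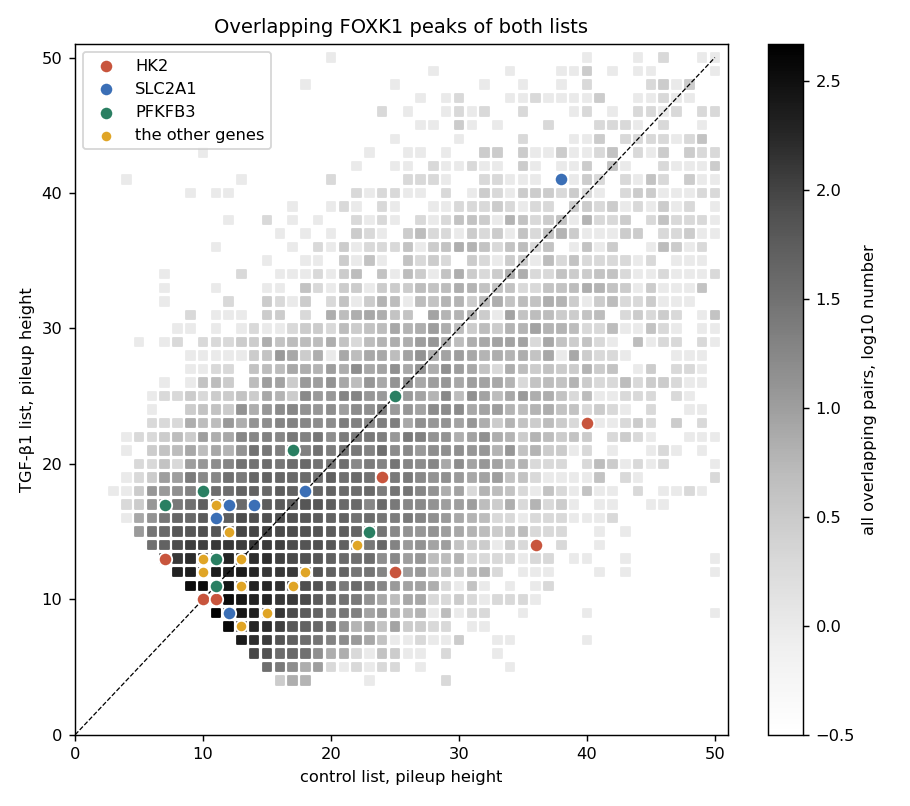
Pileup height of overlapping peaks in the control list (horizontal) and the TGF-β1 list (vertical) for pairs with a summed height of 20 or more and both heights up to 50; grey squares are all pairs, shaded by the log10 of their number, coloured points the pairs of the named genes, and the dashed line marks equal heights. The HK2 pairs at 36 and 14 and at 40 and 23 lie below the line, and the SLC2A1 pair at 38 and 41 just above it.

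Other genes of the pathway were read from lists chosen with earlier results of these data known, by their highest start peak (either gene end where no strand was available). Of 9 other glucose transporters, 4 and 3 had a start peak of height 10 or more, led by SLC2A12 (44 and 29), SLC2A2, the liver and kidney transporter GLUT2 (14 and 10), and SLC2A6 (11 and 12). Of 8 other sugar kinases and regulators, 3 and 4 had one, led by PFKFB2 (21 and 18), HKDC1 (20 and 19) and ADPGK (15 and 16). Of 15 genes of lower glycolysis, 5 and 5 had one, led by ENO1 and PKLR (both 17 and 12) and ALDOA (7 and 15). For comparison, 37.6% and 30.7% of all protein-coding genes had such a peak. The transporters (44.4% and 33.3%) and lower glycolysis (33.3% and 33.3%) lay near that share, as did the kinases and regulators in the control list (37.5%). The 4 of 8 kinases and regulators in the TGF-β1 list were above that share. The lists are short, and none was tested against it. The highest start peak of any of these lists was at TXNIP, which lowers glucose uptake by removing transporters from the cell surface, with heights of 167 and 139. It stood in a list of 10 transcription factors and inhibitors of glucose uptake. Of these, 8 and 7 had a start peak of height 10 or more (80.0% and 70.0%). MYC (41 and 37) and HIF1A (24 and 12) came next.

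The cell type could not be checked from expression, since the files hold peaks only. Over all protein-coding genes, 37.6% and 30.7% had a start peak of height 10 or more. Of 11 proximal tubule markers, 1 and 0 had one, PAX8 with 11 and 7, from peaks that did not overlap. CUBN and ANPEP had control start peaks of 7 and 5 and no TGF-β1 one. LRP2, SLC34A1 and AQP1, singled out after their values were seen, had none. Among 4 epithelial markers 3 had a start peak of height 10 or more in each list, with KRT8 and KRT18 (89 and 71, 1 common peak) and EPCAM (23 and 14). The 12 markers of further cell types of kidney and blood gave 1 and 0, COL1A1 with 12 and 7, and PDGFRB had 6 and none.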

How the data were processed

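The deposited files were 2 lists of FOXK1 peaks, control and TGF-β1, each from 1 FOXK1 library against its own input, per the peak names. Each peak has a deposited signal in whole numbers, read as the authors' pileup height from its values because no header names it. Per the submitters' processing notes, bcl2fastq 2.17, MACS2 2.1.1.20160309 and hg38 were used; the aligner, filters, threshold and depth are not given in the sources used here. Starts were read as counting from 0, so printed peak starts carry an uncertainty of 1 bp.

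Gene coordinates were those of RefSeq GRCh38.p14, with strand and listed starts from its promoter table, which covers 15843 of 20037 protein-coding genes and 9 of the 10 studied. A peak was at the start if it overlapped 1 kb on either side of the outer start (either gene end without a strand), otherwise at the end by the same rule, otherwise placed by its midpoint. Exons were not used here. Lists overlapped at a minimum of 1 bp. Interval functions were checked on simulated peaks. Python 3.11.15, numpy 2.4.6, pandas 2.3.3, scipy 1.17.1 and matplotlib 3.10.9 were used. Genes and lists were chosen with earlier results of these data known. All 10 genes are named, with up to 3 per other list by highest start peak; exceptions are marked, and 1 gene is not reported here. With 1 library per group no test was made.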

Additional observations from a re-analysis of the deposited data

How the results depend on the processing

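The count of genes with a start peak of height 10 or more, 6 (control) and 5 (TGF-β1), depended most on the settings. A minimum height of 15 gave 2 and 1, as did the height of the 10000th highest peak of each list (17 and 15). A start window of 500 bp gave 3 in the TGF-β1 list. The count over the gene body plus 5 kb fell from 9 to 5 in the TGF-β1 list at a minimum height of 15. For these alternatives the share over all protein-coding genes was not counted. The share of peaks overlapped in the other list was 44.6% and 43.5% over all heights, against 30.4% and 26.7% over all protein-coding genes. The mix of heights differed, with heights of 10 or more making up 24.1% and 20.5% of the peaks in the set, against 13.0% and 9.03%. The part of this mix in the gap over all heights was not tested. At heights of 10 or more, by construction a different set of peaks, the overlapped share was 95% and 100%, against 86.3% and 89.2%. The other alternatives moved counts by up to 1.5 times and shares within their intervals. No paired analysis was possible because each group has 1 library. Taking any listed start, an alternative chosen after seeing the data, gave 5 and 5. Unknown depth limits every count of peaks, and no replicate could be left out.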

Other observations

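The window of the FOXK1 gene itself, chosen after its values were seen, had highest peaks of 131 (control) and 92 (TGF-β1), against start peaks of 7 and none. PTPRC, a leukocyte gene also singled out after its values were seen and without a start peak in either list, had window peaks of up to 52 and 39, higher than any peak of HK2 or SLC2A1 in the control list and than all but the SLC2A1 peak of 41 in the TGF-β1 list.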
